A study of Mus musculus with 2 samples.

Results

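The T cell receptor beta locus of the mouse lies on chromosome 6 and holds the gene segments from which developing T cells assemble the beta chain of their antigen receptor. Its members were taken by gene type from the GENCODE M21 annotation of mm10, as all genes of chromosome 6 annotated as a T cell receptor V, D, J or C gene. They were 39 of 55413 annotated genes: 22 V segments, 2 D segments, 13 J segments and 2 C genes. They spanned 667224 bp, from Trbv1 to Trbv31, and were examined with 50000 bp on either side, 767224 bp in all. Accessible chromatin was mapped by DNase-seq, in which DNase I cuts open DNA, in whole thymus of male B6CASTF1/J mice aged 2 months. B6CASTF1/J is the first-generation cross of C57BL/6J and CAST/EiJ, so that every cell carries a reference-like and a CAST/EiJ copy of the locus. The alleles were not separated here. There were 2 samples in 1 group, numbered as separate animals by the labels but given the same donor identifier, so the spread between them may be technical. No treatment or second group exists in the samples analysed, and every value below is a description of these 2 replicates with no test.

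A T cell builds its beta chain gene by V(D)J recombination: the RAG1 and RAG2 proteins cut at recombination signals beside the segments, a D is joined to a J, and a V is then joined to the D-J unit. A recombination signal is a conserved heptamer and nonamer held apart by a short or a long spacer, and a short-spacer signal is joined to a long-spacer one. Cutting needs accessible chromatin, and at this locus accessibility of the D-J clusters is known to depend on an enhancer, Eβ, which lies between Trbc2 and the inverted V segment Trbv31. Joining deletes the DNA between the joined segments, or inverts it for Trbv31. In whole thymus, fewer cells with an open region, less signal per cell and fewer remaining copies of a region cannot be told apart.

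The sequences that carry the main measurements are given first, 5′ to 3′, from the mm10 reference. They come from peaks of the authors' strict lists, whose score is the submitters' signal value. In the peak sequences, capitals mark bases inside a footprint of both replicates, a footprint being a short stretch that the submitters called as protected from cutting. The 5 sequences that follow are the highest peak between Trbc2 and Trbv31, where Eβ is known to lie, the last 300 bases of the peak before Trbd2, the peaks before Trbv12-1 and Trbv12-2, the highest in the V array, and the part of the Trbv31 peak that lies before that segment.
Peak between Trbc2 and Trbv31 (chr6:41554381-41554640, plus strand): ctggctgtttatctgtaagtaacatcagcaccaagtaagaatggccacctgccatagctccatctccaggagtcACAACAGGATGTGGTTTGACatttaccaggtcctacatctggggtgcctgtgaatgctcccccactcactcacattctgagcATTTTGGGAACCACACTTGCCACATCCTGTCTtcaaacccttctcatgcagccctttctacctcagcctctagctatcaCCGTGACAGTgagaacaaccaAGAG
Peak before Trbd2, last 300 bases (chr6:41541853-41542152, plus strand): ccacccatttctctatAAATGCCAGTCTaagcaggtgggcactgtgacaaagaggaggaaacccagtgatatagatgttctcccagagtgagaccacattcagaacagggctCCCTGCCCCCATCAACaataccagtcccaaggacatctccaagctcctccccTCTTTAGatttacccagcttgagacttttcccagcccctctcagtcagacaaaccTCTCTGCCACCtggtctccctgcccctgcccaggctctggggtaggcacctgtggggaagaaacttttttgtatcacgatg
Peak before Trbv12-1 (chr6:41112981-41113160, plus strand): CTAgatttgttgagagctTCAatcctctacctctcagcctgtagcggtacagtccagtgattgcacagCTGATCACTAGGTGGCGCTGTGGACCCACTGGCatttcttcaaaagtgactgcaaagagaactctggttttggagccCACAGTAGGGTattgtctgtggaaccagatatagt
Peak before Trbv12-2 (chr6:41118281-41118480, plus strand): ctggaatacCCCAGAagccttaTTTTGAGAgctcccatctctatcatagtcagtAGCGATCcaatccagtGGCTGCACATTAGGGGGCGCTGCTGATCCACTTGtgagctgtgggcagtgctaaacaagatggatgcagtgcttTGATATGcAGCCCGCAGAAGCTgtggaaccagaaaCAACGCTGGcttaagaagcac
Peak at the 5′ end of Trbv31 (chr6:41558453-41558600, minus strand): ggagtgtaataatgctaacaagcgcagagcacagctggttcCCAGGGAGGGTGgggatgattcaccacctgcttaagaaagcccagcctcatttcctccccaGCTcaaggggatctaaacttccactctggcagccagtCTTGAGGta
The next 6 sequences are recombination signals, chosen to show the signal with the fewest mismatches, the signals overlapped by peaks of both replicates, and the signal before Trbd1 for comparison with Trbd2. Capitals mark the heptamer and the nonamer, read from the heptamer outward on the strand of the signal.
Trbv1, 3′ signal (chr6:40891886-40891924, plus strand): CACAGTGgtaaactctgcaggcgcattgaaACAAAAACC
Trbv19, 3′ signal (chr6:41179049-41179087, plus strand): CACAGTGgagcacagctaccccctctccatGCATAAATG
Trbv31, 3′ signal (chr6:41557654-41557692, minus strand): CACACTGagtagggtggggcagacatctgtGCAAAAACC
Trbd1, 5′ signal (chr6:41533173-41533200, minus strand): CACAATGttacagctttatACAAAAAAG
Trbd2, 5′ signal (chr6:41542135-41542162, minus strand): CACAATGttacatcgtgatACAAAAAAG
Trbj1-6, 5′ signal (chr6:41535526-41535553, minus strand): CACAGCTgcaggtggccttGGTAAAACC
The Trbv1 signal matched the heptamer CACAGTG and the nonamer ACAAAAACC with 0 mismatches, and the signals before Trbd1 and Trbd2 each had 3.

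The strict lists held 63832 peaks in replicate 1 and 67929 in replicate 2, with a median score of 1.58 and 1.37. Scores were whole multiples of a step of 0.00741 in replicate 1 and 0.00608 in replicate 2, so that a median peak held 213 and 226 steps. The sequencing depth behind a step is not stated. The tissue label was checked with marker promoters, counted as open when a strict peak of both replicates lay within 1000 bp of an annotated start site. All 9 thymocyte markers were open, against 59% of all protein-coding genes. Of markers of other cells, 2 of 6 for B cells (Ebf1 and Pax5), 1 of 5 for macrophages (Itgam), 1 of 5 for thymic epithelium (Epcam) and 1 of 6 for pancreatic acinar cells (Cela1) were open. Of 26 genes for recombination, pre-receptor signalling and T lineage control, 25 were open (96.2%); the exception was Dntt, which adds untemplated bases to the joints and had a peak in replicate 1 alone, with a score of 3.07. Rag1 scored 8.32 and 4.61 in replicates 1 and 2, and Rag2 scored 5.87 and 4.08.

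The locus with its flanks held 34 strict peaks in replicate 1 and 39 in replicate 2, of which 24 regions were shared (overlap of at least 1 bp). That came to 3.13 shared regions per 100 kb, against 1.90 over the genome. Shared regions were of ordinary height: the median of their mean scores was 1.68, against 1.86 over the 51709 shared regions of the genome. Of the 24, 19 scored higher in replicate 1, and the median log2 ratio of replicate 2 to replicate 1 was -0.40, against -0.22 over the genome. A further 10 regions were peaks in replicate 1 alone, with scores from 0.489 to 2.47, and 15 in replicate 2 alone, with scores from 0.413 to 1.79. The other replicate's looser list held 8 of the 10 and 7 of the 15.

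**Figure D1:**
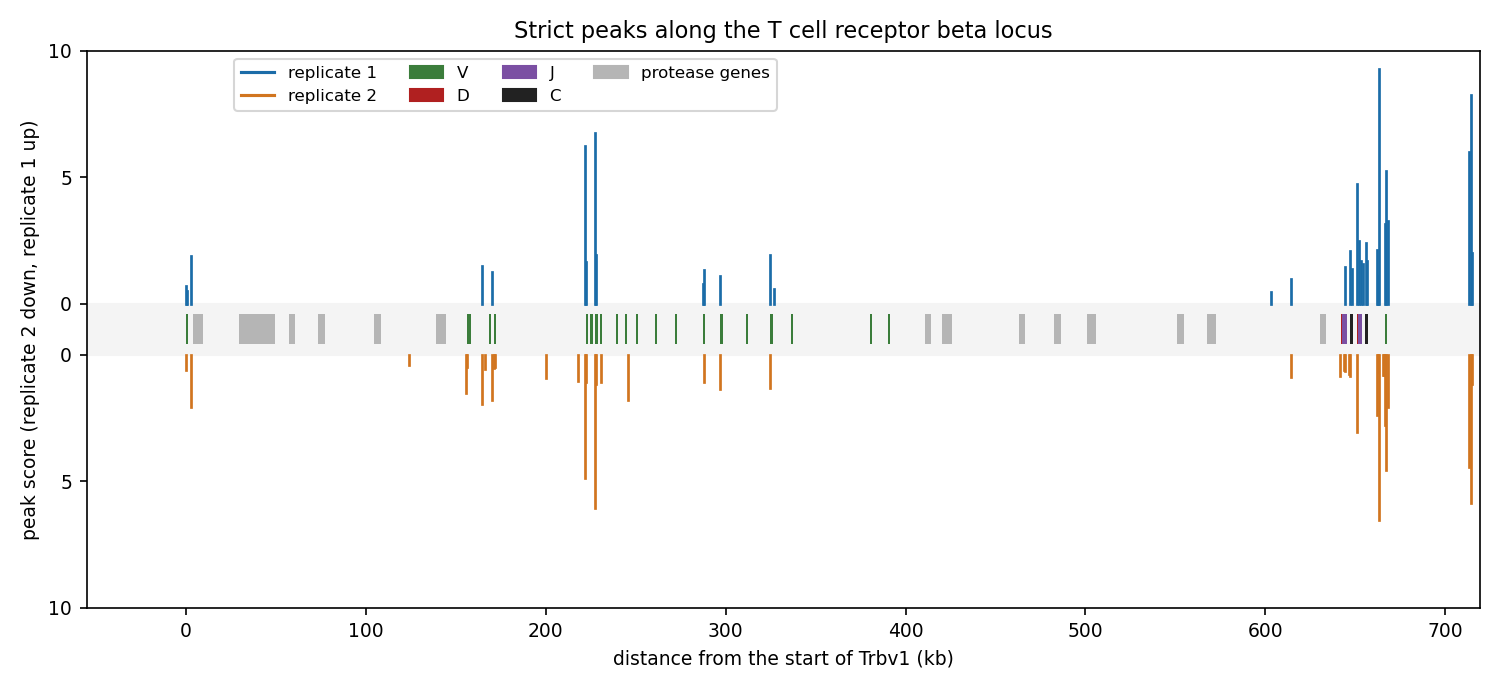
Strict peaks along the locus, by distance from the start of Trbv1 in kb, with replicate 1 upward and replicate 2 downward and the height giving the peak score. Tall lines stand before Trbv12-1 and Trbv12-2 and around the D-J-C clusters and Trbv31, and the grey protease genes on either side of the V array have no peak at their starts.

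The peaks lay in islands. The V array from Trbv2 to Trbv30 held 9 shared regions in 236651 bp, and 8 others lay between Trbd1 and the Trbv31 segment. Bases with a false discovery rate under 0.05, taken from the submitters' tracks, covered 2.51% of the locus in replicate 1 and 2.76% in replicate 2, against 1.44% and 1.32% of the genome. By interval, the share was 2.50% and 4.15% in the V array and 48.7% and 51.2% in the 2762 bp around Trbv31. In the stretch of protease genes after Trbv1 it was 0.366% and 0.378%, and in the trypsinogen array after Trbv30 it was 0.488% and 0.175%, all below the genome's share. Words of 31 bases that occur once in the genome made up 62.4% and 59.7% of these stretches. They made up 85.3% of the V array and 99.9% of the interval around Trbv31. The part that repeated sequence has in the low coverage was not tested.

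**Figure D2:**
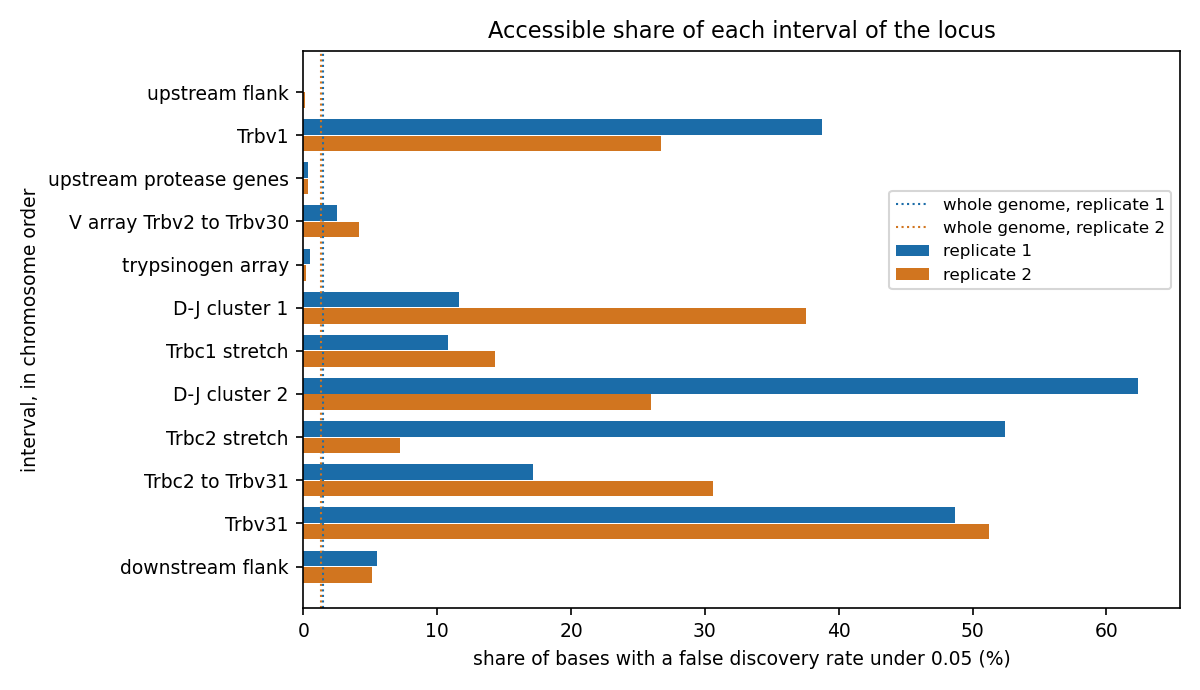
Share of bases with a false discovery rate under 0.05 in each interval, in percent, as bars for replicate 1 and replicate 2, with dotted lines for the whole genome. D-J cluster 2 and the Trbc2 stretch are higher in replicate 1 (62.4% and 52.4%) than in replicate 2 (25.9% and 7.23%), and D-J cluster 1 is higher in replicate 2 (37.6% against 11.6%).

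V segments encode most of the part of the chain that contacts antigen, and each has its own promoter and a long-spacer signal at its 3′ end. A strict peak of both replicates lay within 1000 bp of the 5′ end of 8 of the 22 V segments (36.4%, 95% Wilson interval 19.7 to 57.0%, which covers counting error only). The same rule found 28.5% of all annotated genes and 54.3% of protein-coding genes, so the V segments' share was near that of all genes. The 8 were Trbv1, Trbv5, Trbv12-1, Trbv12-2, Trbv19, Trbv20, Trbv23 and Trbv31. Another 3, Trbv2, Trbv3 and Trbv13-2, had a peak in replicate 2 alone, and 11 had none.

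The highest were the neighbours Trbv12-1 and Trbv12-2. Trbv12-1 scored 6.25 and 4.86 in replicates 1 and 2 (mean 5.55 ± 0.987, SD, n = 2), and Trbv12-2 scored 6.77 and 6.05 (mean 6.41 ± 0.511). Within each replicate Trbv12-2 was the higher of the pair, while their ranges over the replicates overlapped. In both, the high peak was centred some way before the segment, at -480 bp for Trbv12-1 in both replicates and at -461 and -481 bp for Trbv12-2, and a lower peak sat over the 5′ end itself. The lower peak scored 1.66 and 1.06 at Trbv12-1 and 1.93 and 1.17 at Trbv12-2. In the 250 bases directly before the segments, 221 positions were aligned with 86.4% identity, besides 58 gap bases. In 250 bases farther upstream, which include the whole of the high peaks, 218 were aligned with 74.8% identity, besides 64 gap bases. Gaps were left out of both shares. The share of 31-base words that occur once in the genome was 95.9% around Trbv12-1 and 97.3% around Trbv12-2.

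Trbv31, the inverted segment at the far end of the locus, came next among V segments with 5.27 and 4.56 (mean 4.91 ± 0.501). Within each replicate it lay below Trbv12-1 and Trbv12-2, and its range overlapped that of Trbv12-1. The other 5 were lower, and every one of their values lay below 2. Trbv23 scored 1.93 and 1.33, with its peak over the 5′ end. Trbv5 scored 1.27 and 1.78 in a peak centred just over 1 kb before the segment, at -1039 and -1032 bp. The remaining peaks lay at either end of their segments. Trbv19 scored 1.36 and 1.06 at its 3′ end, with centres at 705 and 725 bp after the 5′ end. Trbv20 scored 1.10 and 1.34 directly before the segment, and Trbv1, the first segment of the locus and far from the array, scored 0.711 and 0.614. The ranges of Trbv5, Trbv19, Trbv20 and Trbv23 overlapped, and their order differed between the replicates, except that Trbv23 was above Trbv19 and Trbv5 above Trbv20 in both. Both values of Trbv1 lay below all of theirs.

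**Figure D3:**
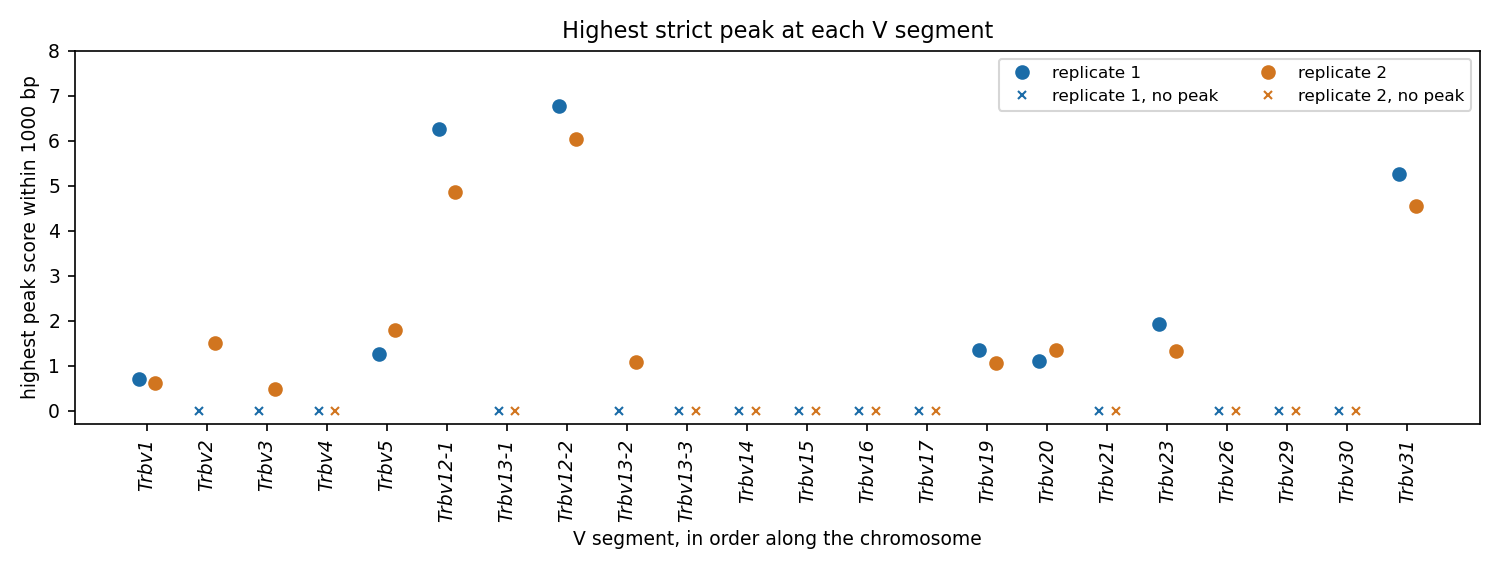
Score of the highest strict peak within 1000 bp of the 5′ end of each V segment, in chromosome order, with a dot for each replicate and a cross at 0 where the replicate had no peak. Trbv12-1, Trbv12-2 and Trbv31 lie between 4.56 and 6.77, and every other value is below 2.

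The position of the peaks differed between segments. Only Trbv12-1, Trbv12-2, Trbv23 and Trbv31 had a shared peak that covered the 5′ end in both replicates. The Trbv1 peak covered it in replicate 1 and lay before it in replicate 2. At Trbv31 a further shared peak covered the 3′ end with scores of 3.14 and 2.80 (mean 2.97 ± 0.244), and another, centred at -1048 bp, scored 3.28 and 2.07 (mean 2.68 ± 0.855).

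**Figure D4:**
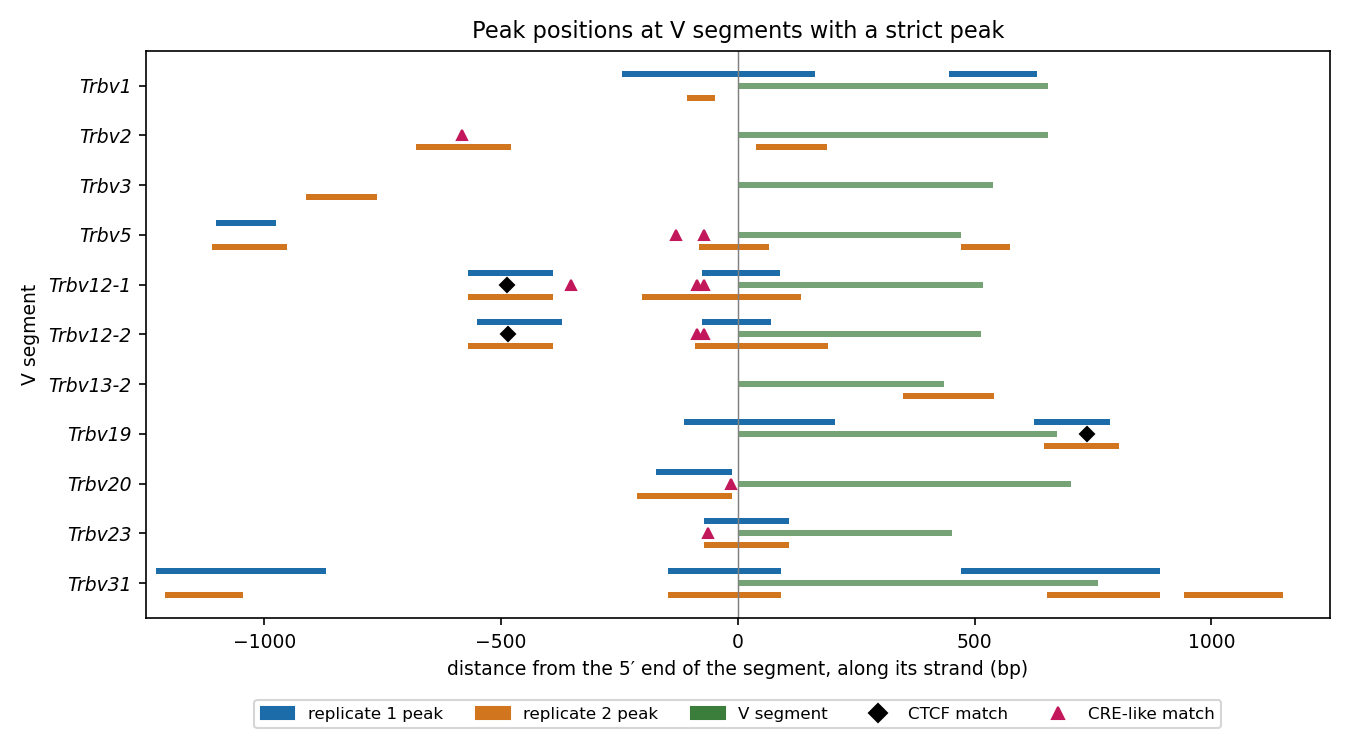
Strict peaks of replicate 1 and replicate 2 around the 11 V segments with a peak in either replicate, by distance in bp from the 5′ end along the segment's strand, with letter matches for CTCF in either of its patterns (diamonds) and the CRE-like motif (triangles). Matches are drawn only where they lay in the 300 bp around the centre of a peak region. The CRE-like match at -78 bp of Trbv13-2 lay outside and is not drawn. The peaks of Trbv12-1 and Trbv12-2 near -480 bp lie apart from the peaks over the 5′ ends. They hold a match to the shorter CTCF pattern alone, which was added after their sequences were seen. The Trbv19 peak holds a match to the longer CTCF pattern at the 3′ end.

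The 3 segments with a strict peak in replicate 2 alone had peaks in the looser list of replicate 1. Trbv2 scored 1.51 in replicate 2 in a peak centred at -580 bp, and 0.711 in the looser list of replicate 1. Trbv13-2 scored 1.07 at its 3′ end in replicate 2, and 1.14 in the looser list of replicate 1. The only peak near Trbv3, with 0.474, was a peak inside Trbv2, which lies directly before it. Across the V array, 9 regions were peaks in replicate 2 alone, with scores from 0.474 to 1.79. The looser list of replicate 1 held 6 of them. Over the genome, 26.7% of replicate 2 peaks in the same range of scores had no strict peak in replicate 1. The array also held 9 shared regions of any score and 2 regions that were peaks in replicate 1 alone. In replicate 2, the high peaks before Trbv12-1 and Trbv12-2 and a peak 3514 bp before Trbv4 scored above that range, with 4.86, 6.05 and 1.96. The other shared regions lay within it.

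The 11 V segments without a strict peak were Trbv4, Trbv13-1, Trbv13-3, Trbv14 to Trbv17, Trbv21, Trbv26, Trbv29 and Trbv30. Within 1000 bp of their 5′ ends, bases with a false discovery rate under 0.05 numbered 0 to 104 in replicate 1 and 0 to 379 in replicate 2, and were 0 at 9 and at 5 of the 11. These bases come from the same cuts as the peaks and are no separate evidence. Of all 22 V segments, 12 had footprints in each of the replicates within 1000 bp, against 30% of all annotated genes. Unique 31-base words made up a median of 97.9% (92.3 to 100%) of the sequence around the 8 and 95.5% (69.5 to 100%) around the 11. The lowest value was at Trbv21.

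The locus also contains protease genes that have no part in the receptor. A group with Prss58 lies between Trbv1 and Trbv2, and the trypsinogen genes, which encode precursors of the digestive enzyme trypsin made by the pancreas (Try4, Try5, Try10, Prss1, Prss2, Prss3 and others), lie between Trbv30 and Trbd1. Of these 14 protein-coding genes, 0 had a peak within 1000 bp of the 5′ end in either list of either replicate. A rough 95% upper limit for that share is 21.4%, which covers counting error only and treats the genes as independent. In the same window, 54.3% of all protein-coding genes had a strict peak of both replicates, and 31.3% of all annotated genes a peak of both in the looser lists. None of the 14 had a base with a false discovery rate under 0.05 or a footprint there. Unique 31-base words were fewer than at V segments, with a median of 82.3% and a range from 41.1 to 100%. The part that repeated sequence has in the count of 0 was not tested. The trypsinogen array held 1 shared region, 27561 bp before Trbd1, which scored 0.978 and 0.875 and lay in an exon of the pseudogene Gm38018.

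D segments add a few bases at the centre of the joint, and each has a known promoter just before it. The locus has a pair of D-J-C clusters in a row, with 8962 bp between the starts of Trbd1 and Trbd2. Before Trbd2, a peak of 360 bp in replicate 1 and 352 bp in replicate 2 scored 4.75 and 3.04 (mean 3.89 ± 1.21). It ended 22 and 10 bp before the segment and covered its short-spacer signal in part. Before Trbd1, replicate 2 had a peak of 0.827 centred at -261 bp, and replicate 1 had 1.38 in the looser list alone. Both Trbd2 values were above every value at Trbd1. In the 400 bases before the D segments, 329 positions were aligned, 243 of them identical (73.9%), and 142 gap bases were left out of that share. Unique words made up 100% of the sequence around Trbd1 and 96.2% around Trbd2.

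J segments supply the last part of the variable region and have a short-spacer signal at their 5′ ends. Within 1000 bp, 6 of the 13 had a peak of both replicates, where the same rule found 28.5% of all annotated genes, and 10 had a peak in replicate 1 and 9 in replicate 2. The J segments of a cluster lie closer together than that window, so these counts rest on few peaks. Trbj1-4 to Trbj1-7 shared the peak over Trbj1-6, which scored 1.47 and 0.644 (mean 1.06 ± 0.582). Trbj2-1 and Trbj2-2 were counted through the peak before Trbd2, the only 1 near them in both replicates. Trbj2-3, Trbj2-4, Trbj2-5 and Trbj2-7 had a peak in replicate 1 alone, with 2.47, and 1.33 in the looser list of replicate 2.

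C genes encode the constant part of the chain, and the first 400 bases of Trbc1 and Trbc2 were 98.2% identical. Trbc1 scored 2.11 and 0.851 (mean 1.48 ± 0.891) in a peak in which unique 31-base words made up 37.3%, so the C genes cannot be fully told apart there. Trbc2 had a peak in replicate 1 alone, with 2.42, and 0.978 in the looser list of replicate 2.

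The replicates differed in the second cluster. From its J segments to the end of Trbc2, 5 regions were peaks in replicate 1 alone, with scores from 1.59 to 2.47. Over the genome, 5.91% of replicate 1 peaks in that range had no strict peak in replicate 2. The Trbc2 stretch held 0 shared regions, and D-J cluster 2 held 1, the peak before Trbd2. Bases with a false discovery rate under 0.05 covered 62.4% of D-J cluster 2 in replicate 1 and 25.9% in replicate 2. In the Trbc2 stretch the shares were 52.4% and 7.23%. In D-J cluster 1 the order was the other way, with 11.6% in replicate 1 and 37.6% in replicate 2. Footprints went the same way as coverage: there were 1 and 11 in D-J cluster 1, 17 and 8 in D-J cluster 2, and 20 and 4 in the Trbc2 stretch. With 1 sample on each side, a difference between animals, in the cells sampled or in the libraries cannot be told apart.

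**Figure D5:**
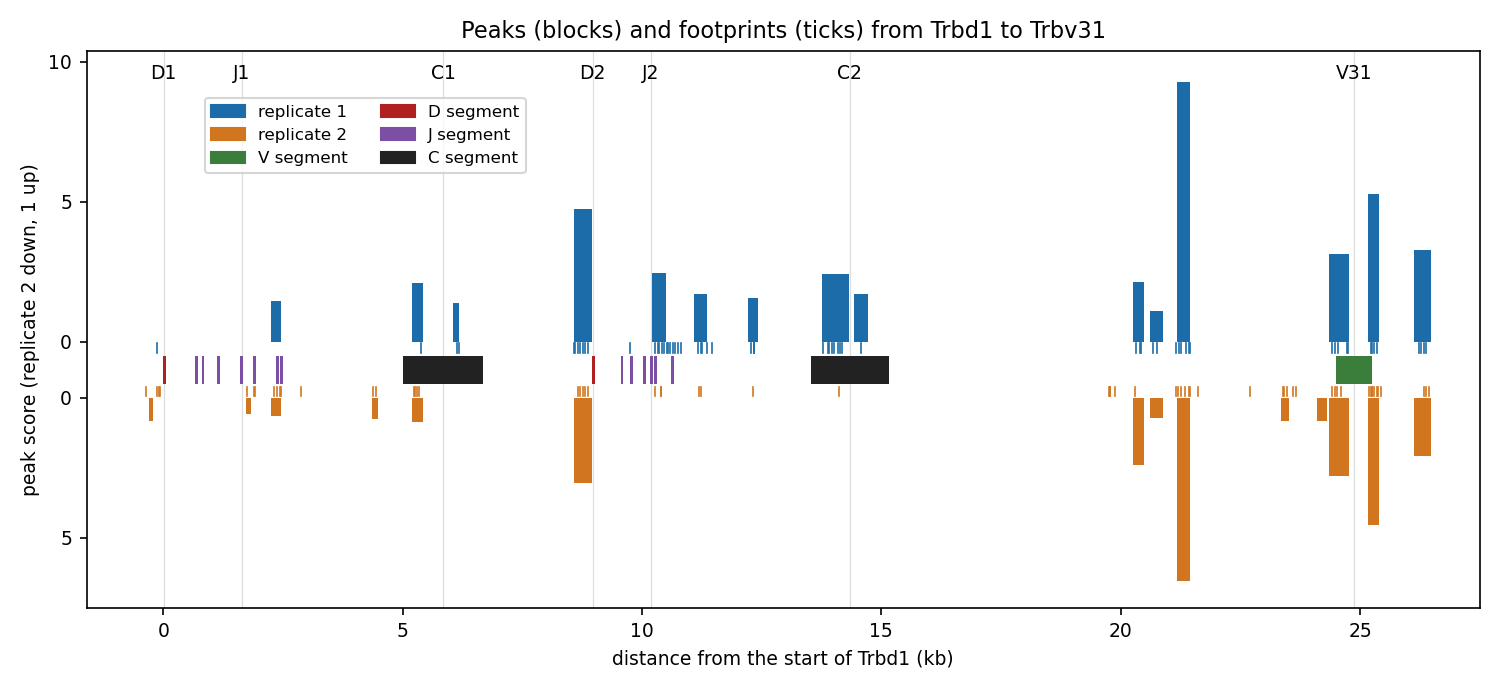
Strict peaks (blocks, with height giving the score) and footprints (ticks) from Trbd1 to Trbv31, by distance from the start of Trbd1 in kb, with replicate 1 upward and replicate 2 downward. Blocks between Trbd2 and the end of Trbc2 stand in replicate 1 alone, while the block before Trbd2, 3 blocks between Trbc2 and Trbv31 and those over the ends of Trbv31 stand in both replicates. Replicate 2 alone has 2 low blocks just after the 3′ end of Trbv31, to its left.

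The highest peak of the whole locus lay between Trbc2 and Trbv31, 6028 bp after the end of Trbc2 and 3050 bp before Trbv31, in the interval that is known to hold Eβ. The files do not annotate the enhancer, and whether this peak is Eβ was not tested. It scored 9.29 and 6.53 (mean 7.91 ± 1.95) and was 260 bp wide. It stood above 91.5% of strict peaks in replicate 1 and 90.8% in replicate 2. It overlapped no annotated exon. Of its footprints, 4 were in both replicates. The RUNX core letters TGTGGT occurred 2 times in it, once on each strand and both times inside a footprint of both replicates. RUNX proteins are transcription factors needed for T cell development and are known to bind Eβ. Smaller shared peaks before it scored 2.14 and 2.39 (mean 2.27 ± 0.179), and 1.12 and 0.705 (mean 0.912 ± 0.292).

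Beyond Trbv31 the downstream flank reached the start of Ephb6, a gene for an ephrin receptor, and 3 of the 4 shared regions there lay at or just before it or in its first part. The peak over the Ephb6 start scored 8.24 and 5.86 (mean 7.05 ± 1.68). It was second to the peak between Trbc2 and Trbv31 by mean score, and the ranges of the pair overlapped. In replicate 2 the peak before Trbv12-2, with 6.05, was also above it. A peak just before it scored 6.00 and 4.45 (mean 5.22 ± 1.10). The 10 highest shared regions were these 3, the peaks before Trbv12-1, Trbv12-2 and Trbd2, the 3 at Trbv31 and the next peak between Trbc2 and Trbv31.

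Recombination signals were located for all V, D and J segments, 39 in all, as the best match to the conserved letters within 10 bases of the segment end. A strict peak of both replicates overlapped 4 of the 39: those of Trbv19, Trbv31, Trbj1-6 and the short-spacer signal of Trbd2. Of all stretches from the first to the last member that are as long as a long-spacer signal, 0.582% overlapped a strict peak of both. Signals that overlapped a footprint in each replicate numbered 2, at Trbv12-2 and Trbv31, against 0.394% of those stretches. At Trbv31 the footprints of the replicates lay over different bases of the signal. At Trbv12-2 the footprint of replicate 1 reached only the first base of the signal. The long-spacer signals of Trbv12-1 and Trbv12-2 had 7 mismatches each, although the peaks before these segments were the highest of the V array. The signal of Trbv1, with 0 mismatches, overlapped no strict peak, although all 39 of its bases had a false discovery rate under 0.05 in both replicates and a footprint of replicate 2 overlapped it.

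CTCF is a DNA-binding protein that anchors chromatin loops and is known to bind along this locus. The longer of its letter patterns searched here, its usual core, occurred 20 times in the locus, 12 times on the plus and 8 times on the minus strand. A footprint of both replicates overlapped 4 of them, and all 4 were on the plus strand. They lay in a peak 1756 bp after Trbv1, in 2 regions of the V array that were strict peaks in replicate 2 alone, and in the peak at the 3′ end of Trbv19. A further match, on the minus strand between the 3′ end of Trbv31 and the highest peak of the locus, had a footprint in replicate 2 alone. The peaks before Trbv12-1 and Trbv12-2 did not hold these letters. After their sequences were seen, the shorter letters AGNNGGCGC were searched as well: they occurred 13 times in the locus, 8 on the plus strand, and the 2 under a footprint of both replicates were those of the Trbv12-1 and Trbv12-2 peaks. In 300 bp around the centre, 8.33% of the locus's shared peaks held the longer letters, against 16.7% over the genome, and 8.33% held the shorter ones, against 13.8%. The 7 footprinted matches follow with 14 bases on either side, the matched letters in capitals, each read on its own strand.
After Trbv1 (chr6:40893709-40893748, plus strand): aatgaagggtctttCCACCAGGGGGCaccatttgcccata
V array, between Trbv5 and Trbv12-1 (chr6:41091291-41091330, plus strand): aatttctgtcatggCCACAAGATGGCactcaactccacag
Before Trbv12-1 (chr6:41113044-41113080, plus strand): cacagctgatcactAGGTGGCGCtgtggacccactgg
Before Trbv12-2 (chr6:41118348-41118384, plus strand): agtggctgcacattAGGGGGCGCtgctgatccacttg
V array, after Trbv14 (chr6:41137159-41137198, plus strand): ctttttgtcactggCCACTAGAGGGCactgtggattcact
3′ end of Trbv19 (chr6:41179093-41179132, plus strand): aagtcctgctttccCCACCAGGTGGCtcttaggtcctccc
Between the highest peak and Trbv31 (chr6:41556560-41556599, minus strand): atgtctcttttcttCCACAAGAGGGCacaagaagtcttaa
A match of letters is a description and does not show binding.

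Other motifs were searched by core letters on both strands in the same 300 bp of the 24 shared peaks. RUNX letters TGTGGT were in 8 (33.3%, against 22.8% of shared peaks of the genome), ETS letters AGGAAG in 9 (37.5%, against 41.8%) and E-box letters CAGNTG in 14 (58.3%, against 61%). Within the peaks as called, the E-box letters were in 15 (62.5%, against 57.5%). GATA letters AGATAA were in 4 (16.7%, against 9.17%), but in 1 within the peaks as called (4.17%, against 6.95%). TCF/LEF letters CTTTGA were in 2 (8.33%, against 17.1%) and SP/KLF letters GGGCGG in 2 (8.33%, against 31.7%). TATA box letters TATAAA were in 4 (16.7%, against 7.91%). Of the 608 RUNX matches in the whole locus, 4 overlapped a footprint of both replicates. They were 2 in the highest peak between Trbc2 and Trbv31, 1 in the Trbv1 peak, covered only in part, and 1 in the peak before Trbv5. None of the 679 GATA matches overlapped one.

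V promoters are known to share a decamer of the cyclic AMP response element (CRE) kind. The CRE-like letters TGANNTCA, which read the same on both strands, were in 5 of the 24 shared peaks (20.8%, against 10.2%), and in 3 within the peaks as called (12.5%, against 9.13%). From 250 bp before to 50 bp after the 5′ end, a window chosen after the peaks were seen, 12 of the 22 V segments held them, against 14.5% of all annotated genes. They were in 5 of the 8 segments with a shared peak, 1 of the 3 with a peak in replicate 2 alone and 6 of the 11 without. The letters were thus present at segments with and without a peak. No CRE-like match of the locus lay in a footprint of both replicates. The stretch from 100 to 30 bases before the 5′ end is shown for segments with a shared peak (Trbv12-2 and Trbv23) and with none (Trbv13-3 and Trbv29). The high peak of Trbv12-2 lies farther upstream. Its lower peak, with 1.93 and 1.17, reaches the stretch shown, as does the Trbv23 peak, with 1.93 and 1.33. The CRE-like letters are in capitals.
Trbv12-2 (chr6:41118751-41118821, plus strand): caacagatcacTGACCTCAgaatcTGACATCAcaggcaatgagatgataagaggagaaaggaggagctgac
Trbv23 (chr6:41215973-41216043, plus strand): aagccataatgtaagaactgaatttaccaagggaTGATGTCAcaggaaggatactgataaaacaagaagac
Trbv13-3 (chr6:41130047-41130117, plus strand): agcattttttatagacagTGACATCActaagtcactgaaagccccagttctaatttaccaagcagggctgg
Trbv29 (chr6:41271294-41271364, plus strand): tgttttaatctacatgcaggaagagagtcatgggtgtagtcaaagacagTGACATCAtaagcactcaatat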

How the data were processed

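DNase-seq of whole thymus gave 4 kinds of interval file for each of 2 samples, on mm10 per the labels. The deposited peak lists, strict and looser, hold the submitters' signal score. The deposited tracks give an adjusted p-value, the false discovery rate, for stretches where it is under 0.05. Footprints, deposited with a constant score, served as positions. What aligned the reads and called peaks and footprints is not given in the sources used here, and neither is the depth.

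Overlapping entries of a list were joined at the highest score (62230 and 66839 remained). A segment's value is its highest strict peak within 1000 bp of the 5′ end. Genes came from GENCODE M21 and sequence from GRCm38.p6 (19 autosomes, X and Y). Named were all V segments with a peak, Trbv1, Trbv31, the D, J and C segments, and the 10 highest shared regions. Members and lists were chosen with earlier results of these data known. A planned marker list is not reported here. Steps were tested on simulated data. The alternatives changed the window, peak list, overlap, motif window, word length and footprint rule, or left out a replicate. The tools were samtools 1.23.1, pysam 0.24.0, numba 0.67.0, numpy 2.4.6, matplotlib 3.10.9, pandas 2.3.3 and scipy 1.17.1 in Python 3.11.15.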

Additional observations from a re-analysis of the deposited data

How the results depend on the processing

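Of 91 recomputed values, 72 stayed within a set limit of the reported value and 19 moved. The limit was 1.5 times for counts, the SD of the 2 replicates for scores and a 95% Wilson interval for the unique share. With a replicate left out, a mean score cannot move by more than that SD, so those alternatives could not be labelled as moved. The count of V segments with a shared peak, 8, was 5 when the peak had to overlap the segment, and 8 to 11 with either replicate left out. The count of J segments, 6, was 3 with a window of 500 bp, 1 by overlap, 12 in the looser list, 2 among the 50000 highest peaks, and 9 to 10 with a replicate left out. The protease genes stayed at 0 under every alternative run. Shared regions, 24, were 40 in the looser lists and 34 to 39 with a replicate left out. Footprints of both replicates, 65, were 43 inside strict peaks of both, and 141 to 182 with a replicate left out. The median score of the named segments and regions, 1.95, was 1.55 from the peak nearest the 5′ end, which took Trbv12-1 to 1.36 and Trbv12-2 to 1.55, and 1.78 to 2.11 from a single replicate. The median unique share at V segments, 97.4%, was 99.8% with 50-base words and 99.3% within 500 bp. Shared regions with any planned motif, 22, were 32 to 35 with a replicate left out, which leaves more regions to count. No paired analysis was possible because the 2 samples form 1 group. The unknown depth limits what the absence of a peak can show.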

Other observations

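Footprints in the locus numbered 141 in replicate 1 and 182 in replicate 2, with a median width of 8 and 9 bp, and 65 of those in replicate 1 overlapped one of replicate 2. Of the footprints, 101 and 110 lay in strict peaks. A peak at the start of the long noncoding RNA gene 5830405F06Rik, which runs through Trbv4 and Trbv5, scored 1.52 and 1.96 (mean 1.74 ± 0.314, SD, n = 2). Its region held 1 match to the RUNX letters.

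Measured by the same rule, J segments with a strict peak of both replicates were 6 of 13 in the beta locus, 5 of 53 in the alpha and delta locus and 0 of 4 in the gamma locus. V segments with one were 8 of 22, 44 of 115 and 2 of 7. By that rule, 28.5% of all annotated genes had a strict peak of both replicates. The J segments of a cluster share peaks, and the difference between the loci was not tested.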
